A study of Mus musculus with 6 samples.

Results

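The subject is a set of 10 genes of the T cell receptor complex and of the T cell surface, read in RNA of keratinocytes isolated from mouse skin. They are the signalling chains Cd3d, Cd3e, Cd3g and Cd247, the constant regions Trdc, Trbc1 and Trbc2 of the delta and beta receptor chains, and the surface proteins Thy1, Cd2 and Klrk1. They were chosen by symbol, as receptor and surface genes of epidermal T cells, and all 10 were found among the 45513 gene identifiers of the deposited count table. The knockout mice (3 mice) carried Lama3flox/flox with K14-CreERT, a tamoxifen-dependent Cre recombinase driven by the keratin 14 promoter in basal keratinocytes. The control mice (3 mice) carried Lama3wt/flox with the same K14-CreERT according to the design text, although their genotype label reads wild type. All were on a C57BL/6 background, the loxP sites flank exons 50 to 53 of Lama3, and Cre was activated with chow holding 400 mg tamoxifen citrate per kg. The labels used here give neither age nor sex. Because the Cre acts in keratin 14 expressing cells, the model is built to delete Lama3 in keratinocytes, not in T cells.

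Mouse epidermis holds a resident population of gamma-delta T cells, the dendritic epidermal T cells, which sit between keratinocytes and were first recognised by their Thy1. Their receptor pairs a gamma and a delta chain, and it is held at the surface by the CD3 epsilon, delta and gamma chains and the zeta chain encoded by Cd247, whose cytoplasmic motifs carry the signal. Nearly all of these cells share 1 receptor made from the variable segments Tcrg-V5 and Trdv4, while the beta chain constant regions belong to the receptor of alpha-beta T cells. The cells also carry the receptor NKG2D, encoded by Klrk1, which binds ligands that keratinocytes show under stress.

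Trbc1 and Trbc2 lie on chromosome 6 of GRCm38, at 41538218 to 41539881 and at 41546730 to 41548352 on the plus strand, 6849 bases apart. Their coding sequences are shown because the results for them differ and because reads can be hard to tell apart between them. Each has 518 coding bases in the GENCODE M21 annotation, of which 495 (95.6%) are identical. Only 1 of the 23 differing bases lies in the first 378 bases, and 22 lie in the last 140, printed here 5′ to 3′ with the differing bases in capitals.
Trbc1: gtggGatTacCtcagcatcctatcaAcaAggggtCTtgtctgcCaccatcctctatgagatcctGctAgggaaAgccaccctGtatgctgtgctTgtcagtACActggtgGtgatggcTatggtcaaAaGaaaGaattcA
Trbc2: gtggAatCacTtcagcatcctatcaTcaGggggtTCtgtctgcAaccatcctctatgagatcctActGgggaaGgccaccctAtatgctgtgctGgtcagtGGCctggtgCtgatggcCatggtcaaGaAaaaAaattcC

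Of the 419 windows of 100 bases, the read length, along this alignment, 183 are the same in both genes. How the authors' counting treated reads that match both genes is not given in the sources used here, so the split of counts between Trbc1 and Trbc2 is uncertain and their sum is given beside it.

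Cd3g, Cd3d and Cd3e are neighbours on chromosome 9, within 40056 bases (GRCm38). Cd3g (44969572 to 44980431, minus strand) and Cd3d (44981786 to 44987339, plus strand) are transcribed away from each other from starts 1355 bases apart, and Cd3e (44998740 to 45009627, minus strand) ends 11401 bases beyond Cd3d. The 250 bases before the RefSeq start of each are printed because the 3 genes fell together in the knockouts. Matches, on either strand, to 4 short motifs were searched and stand in capitals, namely TGTGGT for RUNX factors, AGGAAG for ETS factors, CTTTGA for TCF1 and LEF1, and CAGGTG, an E box.
Cd3g, chr9:44980432-44980681, minus strand: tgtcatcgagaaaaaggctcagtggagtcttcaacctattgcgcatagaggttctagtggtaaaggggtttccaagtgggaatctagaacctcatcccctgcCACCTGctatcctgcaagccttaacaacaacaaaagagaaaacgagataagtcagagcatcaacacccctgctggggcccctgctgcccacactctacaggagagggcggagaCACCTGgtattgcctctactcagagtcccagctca
Cd3d, chr9:44981536-44981785, plus strand: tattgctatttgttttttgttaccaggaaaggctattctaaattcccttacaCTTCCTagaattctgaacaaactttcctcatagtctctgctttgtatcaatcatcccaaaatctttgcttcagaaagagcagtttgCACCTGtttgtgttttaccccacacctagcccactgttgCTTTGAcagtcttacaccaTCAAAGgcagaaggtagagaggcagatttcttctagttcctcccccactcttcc
Cd3e, chr9:45009612-45009861, minus strand: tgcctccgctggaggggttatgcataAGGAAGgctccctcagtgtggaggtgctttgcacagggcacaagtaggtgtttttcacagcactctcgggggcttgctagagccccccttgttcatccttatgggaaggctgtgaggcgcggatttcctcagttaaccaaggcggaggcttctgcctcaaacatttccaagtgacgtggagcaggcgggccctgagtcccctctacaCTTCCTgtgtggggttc

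The E box was matched 2 times before Cd3g, 1 time before Cd3d and 0 times before Cd3e, and 17.2% of 32851 RefSeq promoters of GRCm38.p6 hold it in the same window. The ETS motif was matched 2 times before Cd3e, 1 time before Cd3d and 0 times before Cd3g, against 29.5% of promoters with a match. The TCF1 and LEF1 motif was matched 2 times, before Cd3d, and is held by 13.8% of promoters. The RUNX motif, held by 14.0% of promoters, had no match in these 3 windows. No motif was shared by all 3 windows, and no 2 matches overlapped.

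Total counts lay between 20126395 and 28473479 per library. Lama3 itself was lower in the knockouts, at 91.8 ± 10.9 CPM (counts scaled to a common library size with TMM factors) against 132 ± 15.5 CPM in the controls (SD, n = 3 each, edgeR's adjusted p = 0.0215), and lost its call without control 1, control 2 or knockout 1. The gene count also covers the exons outside the deletion. The keratinocyte markers were abundant in all libraries, with the basal keratins Krt5 at 7349 ± 1297 CPM in knockouts and 8174 ± 1364 CPM in controls, and Krt14 at 4719 ± 614 and 4247 ± 511 CPM in knockouts and controls, neither called. Of the 10 keratinocyte markers 10% fell and 40% rose, beside 18.8% and 17.4% of all genes tested. The basal keratin gene Krt15 fell (-0.93, SE 0.29), while Krt1 (1.77, SE 0.43), Krt10 (1.16, SE 0.29), Dsp (1.13, SE 0.23) and Dsg3 (0.85, SE 0.21) rose. The call of Krt1 was lost without knockout 1 and that of Dsg3 without knockout 1, control 1 or control 3. Control 2 was the lowest of the 3 controls for all 10 genes. Without it 8 of the 10 genes fell and 0 rose. Xist and Ddx3y counts read knockouts 1 and 2 and control 1 as female and the other 3 mice as male.

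Of the 10 genes 8 fell in the knockouts, 1 rose and 1 was not called, all 10 having passed the filter on low counts. These words are kept for genes with an adjusted p under 0.05 (edgeR's quasi-likelihood test, adjusted by Benjamini-Hochberg across the 15513 genes tested). Of all genes tested, 18.8% were called lower and 17.4% were called higher, so that 48% of the called genes were higher. With upper-quartile factors, which shifted the median of all genes by -0.15 on the log2 scale, 30.6% of the called genes were higher. The median log2 fold change of knockout over control was -1.64 over the 10 genes, beside -0.02 over all genes tested. In the same 8 genes all 3 knockout libraries lay below all 3 controls, which held for 26.5% of all genes tested. The opposite order held for 1 of the 10, beside 25.2% of all genes. These are bulk libraries, in which fewer T cells and less receptor RNA per T cell cannot be told apart.

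**Figure D1:**
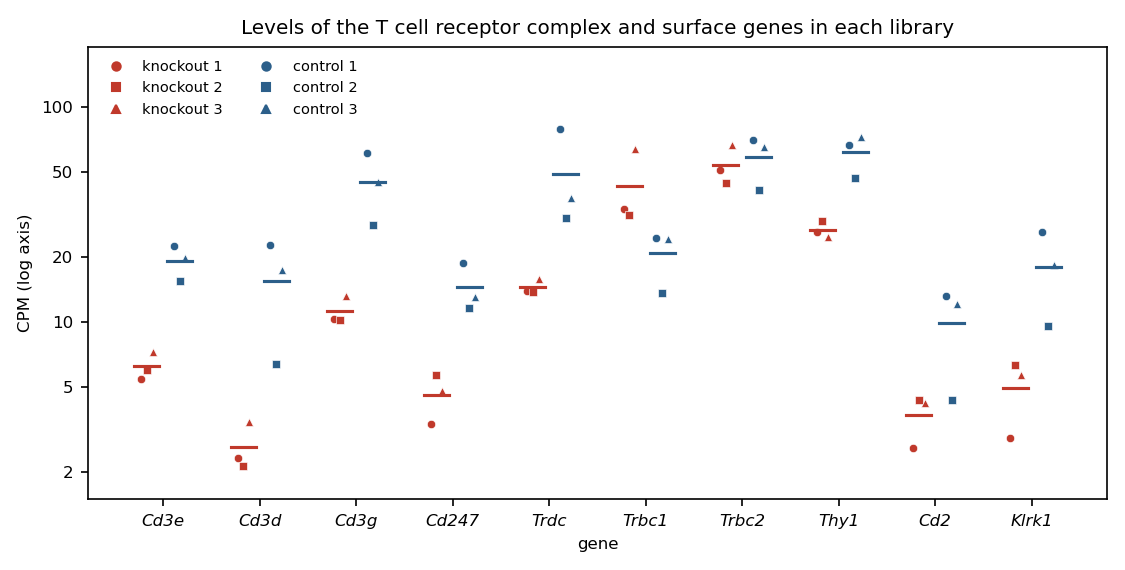
CPM on a log axis (vertical) of each gene (horizontal) in each knockout library, left, and each control library, right; marker shapes are the mice and bars the group means. Knockout libraries lie below every control for 8 genes, above every control for Trbc1, and among the controls for Trbc2.

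Among the signalling chains, Cd3e, the epsilon chain that pairs with both the delta and the gamma chain of CD3, had 5.45, 6.00 and 7.22 CPM in knockouts 1, 2 and 3, against 22.4, 15.5 and 19.8 CPM in controls 1, 2 and 3. Every knockout lay below every control, with a log2 fold change of -1.63 (SE 0.19, edgeR's adjusted p = 0.00171). Of its exon bases 3.31% overlap an annotated antisense gene, Gm48719.

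Cd3g, the gamma chain of CD3, had 10.3, 10.2 and 13.2 CPM in the knockouts and 61.2, 28.1 and 44.7 CPM in the controls (-1.99, SE 0.28, edgeR's adjusted p = 0.00295). The 3 controls spread over a wider range than the 3 knockouts, and the groups did not overlap. Cd3d, the CD3 delta chain, had 2.33, 2.13 and 3.41 CPM in the knockouts and 22.7, 6.39 and 17.4 CPM in the controls (-2.56, SE 0.45, edgeR's adjusted p = 0.00629). Control 2 lay nearer to the knockouts than to the other controls, and above all 3 of them.

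Cd247, the zeta chain, which carries the most signalling motifs of the complex, had 3.34, 5.65 and 4.75 CPM in the knockouts and 18.8, 11.6 and 13.01 CPM in the controls (-1.66, SE 0.26, edgeR's adjusted p = 0.00412). The groups did not overlap. Cd247 lies on chromosome 1 (165788681 to 165877277, plus strand), and 60.3% of its exon bases also lie in exons of Pou2f1, on the other strand, or of Gm16565, so that without a stated use of strand its count is less certain than those of the CD3 chains.

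Summed over Cd3d, Cd3e, Cd3g and Cd247, the level was 21.4, 24.0 and 28.6 CPM in knockouts 1, 2 and 3 and 125, 61.7 and 94.9 CPM in controls 1, 2 and 3. The mean of the knockouts was 26.3% of that of the controls (24.7 ± 3.65 and 93.9 ± 31.8 CPM, 2-sided exact permutation p = 0.1, the smallest that 3 against 3 allows). The highest control was 2.03 times the lowest, and the highest knockout 1.34 times the lowest.

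The delta chain constant region Trdc (chromosome 14, 54142851 to 54148868, plus strand) fell as well. It had 13.9, 13.8 and 15.9 CPM in the knockouts and 78.7, 30.3 and 37.6 CPM in the controls (-1.75, SE 0.34, edgeR's adjusted p = 0.00803). Control 1 stood above the other 2 controls, and all 3 controls above all knockouts. Of the Trdc exon bases 7.84% are shared with genes on the other strand, Trdv5 and Gm43434.

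All 6 other receptor genes on a list beside these fell (100%, beside 18.8% of all genes tested), with a median log2 fold change of -1.86. They are the gamma constant regions Tcrg-C1 (-1.81, SE 0.33), Tcrg-C2 (-1.73, SE 0.40) and Tcrg-C4 (-2.24, SE 0.35), the variable segments Tcrg-V5 (-1.90, SE 0.35) and Trdv4 (-1.46, SE 0.33), and the alpha constant region Trac (-2.11, SE 0.48). Trdv4 had 5.45, 5.31 and 5.26 CPM in the knockouts and 23.4, 9.34 and 11.3 CPM in the controls. The 3 knockout libraries were nearly alike for this segment, and the controls were not. Without knockout 1 Tcrg-C2 lost its call (edgeR's adjusted p = 0.0526).

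The use of these segments was examined as a share of all counts on annotated delta or gamma variable segments. Trdv4 held 129 of 129, 152 of 152 and 145 of 145 delta variable counts in knockouts 1, 2 and 3, shares of 100% with exact Clopper-Pearson 95% intervals that begin at 97.2%, 97.6% and 97.5%. In the controls it held 543 of 547, 196 of 197 and 287 of 291 (99.3%, 99.5% and 98.6%). Tcrg-V5 held 90.8%, 82.7% and 73.6% of 65, 75 and 106 gamma variable counts in the knockouts, and 82.8%, 84.7% and 68.8% of 408, 150 and 272 in the controls. Both groups thus overlapped in the share of Tcrg-V5, and counts on the other delta segments, at most 4 per library, did not resolve a difference. These intervals cover counting error only.

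**Figure D2:**
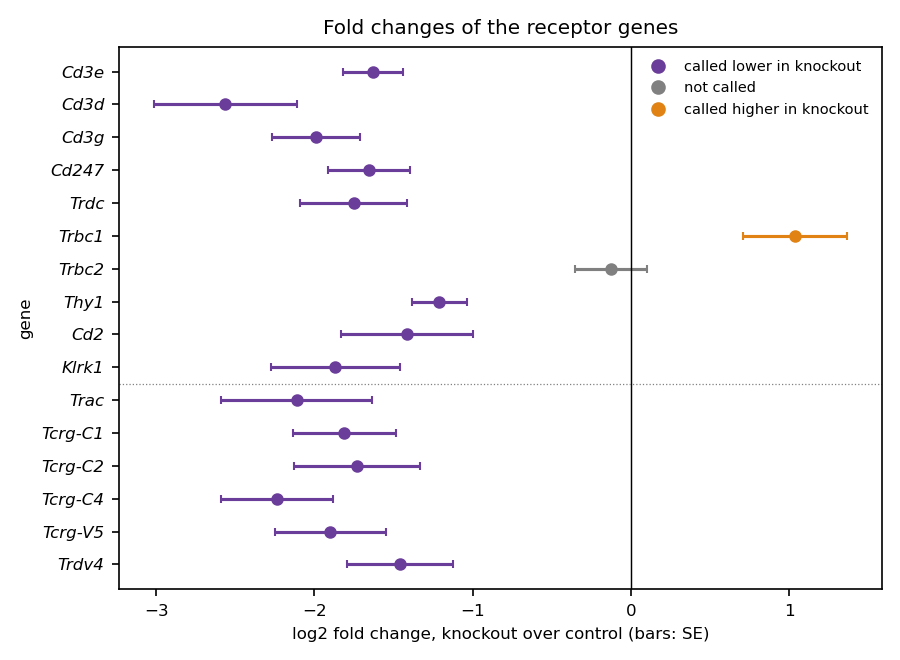
Log2 fold change of knockout over control (horizontal, bars are SE) of the 10 genes, above the dotted line, and of 6 other receptor genes, below it; colours give edgeR's call. Trbc1 is the 1 gene to the right of 0 and called, at 1.04, and Trbc2 lies at -0.12.

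The beta chain constant regions did not follow the other chains. Trbc1 had 33.4, 31.3 and 63.9 CPM in the knockouts and 24.6, 13.6 and 24.3 CPM in the controls (1.04, SE 0.33, edgeR's adjusted p = 0.0409). All 3 knockouts lay above all 3 controls, with knockout 3 well above the other knockouts. The call is a weak one, since it was lost without knockout 1, knockout 3, control 1, control 2 or control 3 (edgeR's adjusted p between 0.0545 and 0.101), with upper-quartile factors (0.0713) and with no filter on low counts (0.128), while the fold stayed positive in each. Trbc2 had 51.0, 44.5 and 66.5 CPM in the knockouts and 70.2, 40.9 and 65.2 CPM in the controls (-0.12, SE 0.23, edgeR's adjusted p = 0.694), with the groups overlapping. Its direction turned positive without knockout 2 (0.0051) or without control 1 (0.029).

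With Trbc1 and Trbc2 counted as 1 gene the log2 fold change was 0.28 and was not called (edgeR's adjusted p = 0.425). Trbc1 made up 39.6%, 41.3% and 49.0% of the counts of the pair in knockouts 1, 2 and 3, and 25.9%, 24.9% and 27.2% in controls 1, 2 and 3. The mean share was 43.3 ± 5.04% in knockouts and 26.0 ± 1.11% in controls, without overlap (SD, n = 3 each). The 2-sided exact permutation test gave p = 0.1, its lowest possible value.

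To set the chains against each other without any scaling of libraries, the count of each gene was divided by that of Cd3e in the same library. Trbc1 stood at 6.12, 5.21 and 8.84 times Cd3e in the knockouts and at 1.10, 0.874 and 1.23 times in the controls. Trbc2 stood at 9.35, 7.41 and 9.20 times Cd3e in the knockouts and at 3.13, 2.63 and 3.30 times in the controls. These 2 ratios were higher in every knockout than in every control, by 2.63 and 1.52 on the log2 scale. Because Cd3e itself fell (-1.63), a gene that did not change would also have a higher ratio. The difference of 1.52 for Trbc2 was near that fall. The ratios of the other 7 genes overlapped between groups, among them Trdc, at 2.35 ± 0.184 in knockouts and 2.45 ± 0.914 in controls, and Cd247, at 0.738 ± 0.178 in knockouts and 0.748 ± 0.0904 in controls. Of 13 ratios tested, the 4 of Trac, Tcrg-C1, Tcrg-V5 and Trdv4 included, these 2 had the smallest possible 2-sided exact permutation p of 0.1, or 0.65 after Benjamini-Hochberg adjustment.

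**Figure D3:**
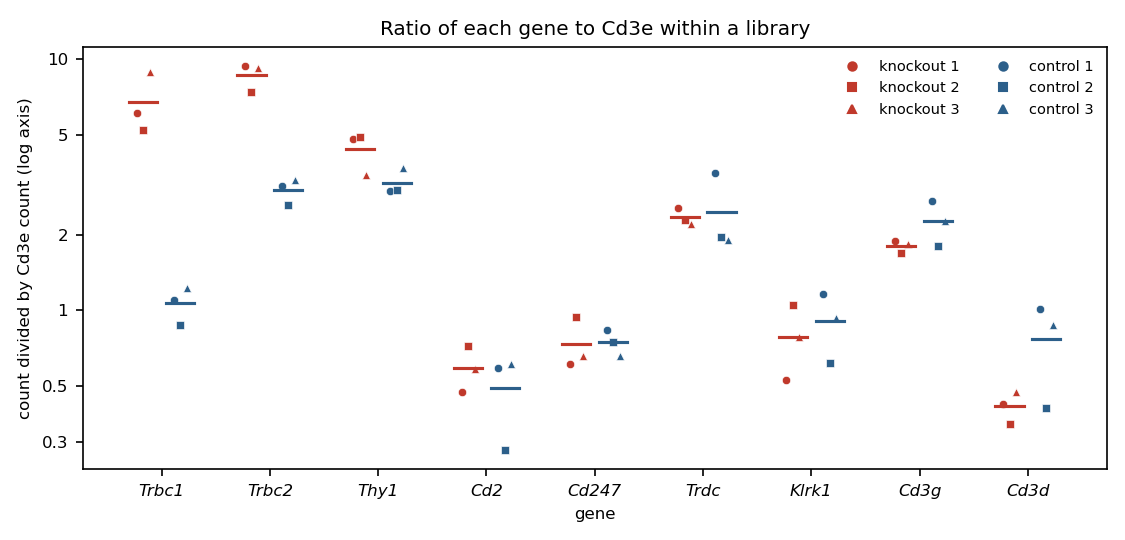
Count of each gene divided by the Cd3e count of the same library (log axis, vertical) for 9 genes (horizontal), knockouts left and controls right; bars are means. The ratios of Trbc1 and Trbc2 are higher in every knockout than in every control, and the other 7 overlap.

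The joining segments beside the 2 beta constant regions, looked at after these values were seen, were uneven. Trbj1-6 is a coding segment of 53 bases on chromosome 6 (41535554 to 41535606, plus strand), which ends 2612 bases before Trbc1. It is printed because it alone of the 6 joining segments tested was called.
Trbj1-6: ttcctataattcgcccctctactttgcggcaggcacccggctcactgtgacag

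Trbj1-6 had 93, 102 and 202 counts in the knockouts and 20, 17 and 28 counts in the controls (2.41, SE 0.36, edgeR's adjusted p = 0.00351), and was called in all 14 alternative fits. It made up 78.8%, 73.9% and 78.6% of the counts on the segments of the first cluster in the knockouts, and 33.9%, 37.0% and 29.2% in the controls. The other segments of that cluster together had 25, 36 and 55 counts in the knockouts and 39, 29 and 68 counts in the controls, which overlap. Trbj2-7, the most counted segment of the second cluster in the controls, had 1.65, 2.23 and 2.36 CPM in the knockouts and 4.48, 2.53 and 2.99 CPM in the controls (-0.68, SE 0.30, edgeR's adjusted p = 0.111). Annotated beta variable segments together had 19, 30 and 44 counts in the knockouts and 106, 61 and 158 counts in the controls. Between the groups, Trbc1 and Trbj1-6 were thus higher in the knockouts, while the beta variable counts and Trac were lower. Within the groups the order in CPM was mixed. Knockout 1 lay above knockout 2 for Trbc1 (33.4 and 31.3) and below it for Trac (1.06 and 1.15). Trbc1, Trbj1-6, the beta variable counts and Trac were each highest, among the knockouts, in knockout 3. Each was lowest, among the controls, in control 2.

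**Figure D4:**
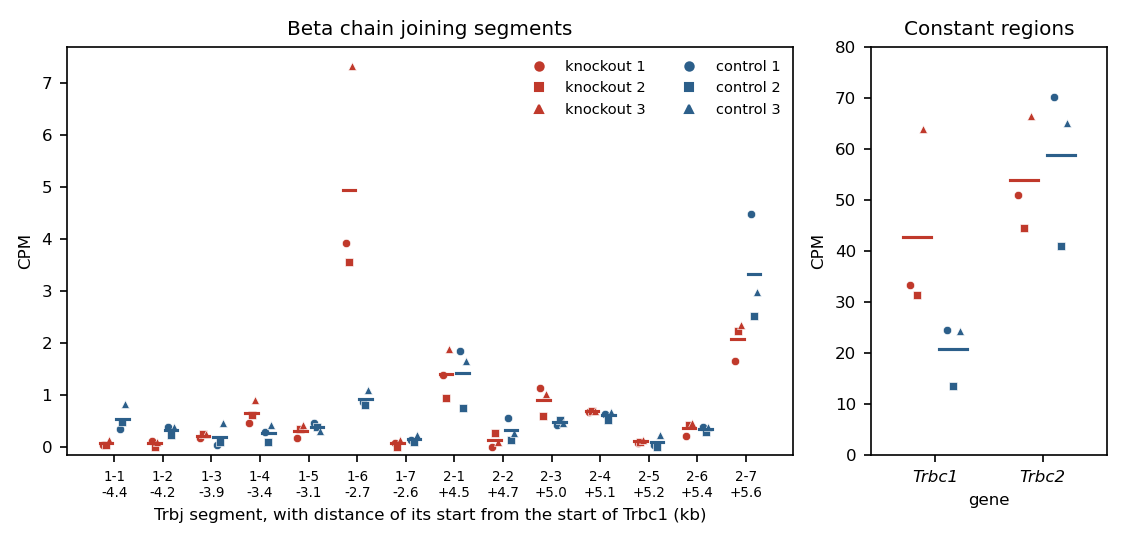
CPM (vertical) of each beta joining segment, with the distance of its start from that of Trbc1 in kb under its name (left), and of Trbc1 and Trbc2 (right), knockouts left of controls; bars are means. Trbj1-6 has 3.56 to 7.33 CPM in the knockouts and 0.810 to 1.10 CPM in the controls.

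Of 8 markers of alpha-beta T cells 2 fell (25%, beside 18.8% of all genes tested), Cd8a (-2.42, SE 0.55) and Cd8b1 (-2.31, SE 0.74), which encode the chains of the CD8 co-receptor, and 6 were not called, with a median of -1.10. The knockouts and controls overlapped for Cd8b1. The call of Cd8b1 was lost in 8 of 14 alternatives and that of Cd8a in 3, without knockout 1 or knockout 2 and with no filter. The summed level of the list was 7.54 to 15.9 CPM in the knockouts and 15.01 to 38.5 CPM in the controls. Among markers of B and NK cells only 3 of 10 were tested, too few to set beside the share of all genes, and 1, the immunoglobulin gene Ighm, fell (-1.27, SE 0.33), a call lost in 4 of 14 alternatives. The B cell marker Ms4a1 was at 0 in all 6 libraries. The part of these cells in the levels of Trbc1 and Trbc2 was not tested.

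Of the surface genes, Thy1, a glycoprotein anchored in the membrane of T cells, had 26.2, 29.4 and 24.9 CPM in the knockouts and 66.7, 46.8 and 72.6 CPM in the controls (-1.21, SE 0.17, edgeR's adjusted p = 0.00302). It lies on chromosome 9 (44043384 to 44048579, plus strand), and the groups did not overlap. Fibroblasts also make Thy1. Of 8 fibroblast markers 2 fell (25%, near the 18.8% of all genes tested), the matrix proteoglycan genes Dcn (-1.60, SE 0.24) and Lum (-1.90, SE 0.55), and 6 were not called, and their summed level was 169 to 222 CPM in the knockouts and 137 to 261 CPM in the controls. The call of Lum was lost without knockout 1, knockout 2, control 1 or control 3. The part of these cells in the fall of Thy1 was not tested.

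Klrk1 (chromosome 6, 129610323 to 129623864, minus strand) had 2.88, 6.28 and 5.66 CPM in the knockouts and 26.2, 9.63 and 18.4 CPM in the controls (-1.87, SE 0.41, edgeR's adjusted p = 0.0124). All knockouts lay below all controls, and the lowest control was control 2. NKG2D signals through the adaptors DAP10 and DAP12, encoded by Hcst and Tyrobp, which fell too. Hcst had 0.381, 0.489 and 0.508 CPM in the knockouts and 4.31, 1.81 and 3.14 CPM in the controls (-2.73, SE 0.39, edgeR's adjusted p = 0.00313). Tyrobp fell by 1.80 (SE 0.41), a call lost without knockout 1 (edgeR's adjusted p = 0.0516).

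Cd2 (chromosome 3, 101275899 to 101287939, minus strand) is an adhesion receptor that in the mouse binds CD48. It had 2.58, 4.33 and 4.21 CPM in the knockouts and 13.2, 4.34 and 12.1 CPM in the controls (-1.41, SE 0.42, edgeR's adjusted p = 0.0328). Knockouts 2 and 3 lay almost level with control 2, and the call was lost in 8 of 14 alternatives, without any 1 of the 3 knockouts, control 1 or control 3 among them (edgeR's adjusted p between 0.0621 and 0.103). Without control 2 it was kept, at an adjusted p of 0.00686. The 7 other genes that fell were called in all 14 alternatives, with Klrk1 reaching the highest adjusted p among them (0.0443, with no filter).

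Levels of different genes were compared per length, as CPM per kilobase of merged annotated exons, which understates a gene whose annotation holds retained introns. In the knockouts the order was Trbc2 (78.0 ± 16.3), Trbc1 (57.2 ± 24.4), Thy1 (8.96 ± 0.761), Trdc, Cd3g, Cd2, Cd3e, Cd3d, Cd247 and Klrk1 (0.688 ± 0.253). In the controls it was Trbc2 (84.9 ± 22.7), Trbc1 (27.8 ± 8.37), Thy1 (20.7 ± 4.50), Cd3g, Trdc, Cd3d, Cd2, Cd3e, Cd247 and Klrk1 (2.52 ± 1.15). The gap between neighbours exceeded the sum of their SDs at 3 places in the knockouts, between Trbc1 and Thy1, Thy1 and Trdc, and Cd3g and Cd2. In the controls it did so at 2 places, between Trbc2 and Trbc1 and between Cd3e and Cd247. Trbc2 and Trbc1 held the 2 highest mean levels per length in both groups. In the controls, however, the gap from Trbc1 to Thy1 (7.09) did not exceed the sum of their SDs (12.9). The alpha constant region Trac, which is outside this order, had 1.71 ± 0.911 in knockouts and 7.40 ± 3.32 in controls. Both beta constant regions thus had higher mean levels per length than Trac in each group. Why they did so was not tested.

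The proteins that pass on the receptor's signal inside the cell were described from a list of 22 genes, of which 19 were tested. Of these 12 fell (63.2%, beside 18.8% of all genes tested), 1 rose (5.26%, beside 17.4%) and 6 were not called. The median log2 fold change was -1.35. Lck, the kinase that phosphorylates the CD3 and zeta chains, had 2.62, 3.70 and 4.83 CPM in the knockouts and 17.1, 7.91 and 17.7 CPM in the controls (-1.93, SE 0.35). Zap70, the kinase that binds the phosphorylated chains, fell by 1.35 (SE 0.33), a call lost without knockout 1 or control 1. Its substrate, the membrane adaptor Lat, fell by 1.61 (SE 0.29). The adaptor gene Skap1 had 1.06, 0.942 and 1.09 CPM in the knockouts and 7.28, 3.81 and 6.49 CPM in the controls (-2.51, SE 0.31, edgeR's adjusted p = 0.00188), the smallest p of the list.

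The member that rose was Prkcq, protein kinase C theta, with 53.5, 32.5 and 54.7 CPM in the knockouts and 8.79, 12.1 and 20.2 CPM in the controls (1.77, SE 0.33, edgeR's adjusted p = 0.00707). Which cells gave the Prkcq counts was not tested. Fyn, a kinase related to Lck that many cell types express, had 17.9, 16.5 and 15.7 CPM in the knockouts and 11.2, 9.10 and 14.7 CPM in the controls, and was not called (0.52, SE 0.19, edgeR's adjusted p = 0.0643). The number of signalling genes that fell was 7 without knockout 1 and 8 without control 1, and the number that rose was 2 without control 3. Over all genes tested, 1735 were called lower without knockout 1 and 2024 without control 1, against 2919 with all 6 libraries. Without control 3, 1586 were called higher, against 2693.

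Receptors, cytokines and effector molecules of epidermal T cells formed a list of 40 genes, of which 33 were tested. In the knockouts 24 fell (72.7%, beside 18.8% of all genes tested), 1 rose (3.03%, beside 17.4%) and 8 were not called. The median was -1.68. Xcl1, a chemokine that attracts dendritic cells, had 1.61, 1.396 and 2.54 CPM in the knockouts and 35.5, 13.1 and 22.7 CPM in the controls (-3.68, SE 0.41, edgeR's adjusted p = 0.00159). The chemokine receptor gene Cxcr6 fell by 3.05 (SE 0.43). Itgae, the integrin chain that binds E-cadherin of keratinocytes, fell by 1.63 (SE 0.30), and the surface protein gene Cd7 by 1.75 (SE 0.29).

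The granzyme gene Gzmc had 1.10, 1.36 and 8.49 CPM in the knockouts and 11.02, 29.5 and 69.8 CPM in the controls (-3.32, SE 0.95), and its call was lost without knockout 1, knockout 2, control 2 or control 3 and with no filter. The member of this list that rose was Rora, a nuclear receptor gene (0.93, SE 0.21), at 230 ± 60.7 CPM in knockouts and 121 ± 15.1 CPM in controls. Which cells gave the Rora counts was not tested. The number of genes of the list that fell was 12 without knockout 1, 15 without knockout 2, 16 without control 1 and 14 without control 3. Over all genes tested, 1735, 1750, 2024 and 1714 were called lower in these fits, against 2919 with all 6 libraries.

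Of 17 genes for ligands and survival factors that keratinocytes offer to these cells, 14 were found and 11 tested. Of these 4 fell (36.4%, beside 18.8% of all genes tested), 1 rose (9.09%, beside 17.4%) and 6 were not called, with a median of -0.26. Il15, the cytokine on which epidermal gamma-delta T cells depend, had 3.93, 3.595 and 4.94 CPM in the knockouts and 22.0, 14.5 and 15.5 CPM in the controls (-2.06, SE 0.22, edgeR's adjusted p = 0.00139). The groups did not overlap, and the call held in all 14 alternatives. Which cells gave the counts of Il15 was not tested. The genes of its receptor chains fell as well, Il15ra by 0.69 (SE 0.18), Il2rb by 0.89 (SE 0.26) and Il2rg by 1.22 (SE 0.26). The calls of Il15ra and Il2rb were lost without knockout 1, knockout 2, control 1 or control 3.

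Ccl27a, a keratinocyte chemokine that attracts skin-homing T cells, had 66.9, 114 and 79.9 CPM in the knockouts and 410, 245 and 327 CPM in the controls (-1.91, SE 0.25, edgeR's adjusted p = 0.00258). Il7, a lymphocyte survival cytokine, fell by 0.86 (SE 0.26), and lost its call in 5 of 14 alternatives. The NKG2D ligand gene H60c had 97.7, 63.8 and 95.4 CPM in the knockouts and 65.8, 63.4 and 93.0 CPM in the controls, and was not called (0.21, SE 0.21, edgeR's adjusted p = 0.459). Cxadr, which encodes the ligand of the T cell protein JAML, was not called (0.16, SE 0.14), while Jaml itself fell by 1.25 (SE 0.39), a call lost in 5 of 14 alternatives.

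Cd48, the ligand gene of Cd2, fell by 1.79 (SE 0.43), a call lost without knockout 1, control 1 or control 3, and leukocytes express it as well. Plxnb2, a plexin that binds CD100 on epidermal T cells, rose (0.67, SE 0.14) and had 336, 303 and 264 CPM in the knockouts and 180, 206 and 181 CPM in the controls. The number of ligand genes that fell was 2 without knockout 1, control 1 or control 3. Over all genes tested, 1735, 2024 and 1714 were called lower in these fits, against 2919 with all 6 libraries. The number of ligand genes that rose was 2 without knockout 3.

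**Figure D5:**
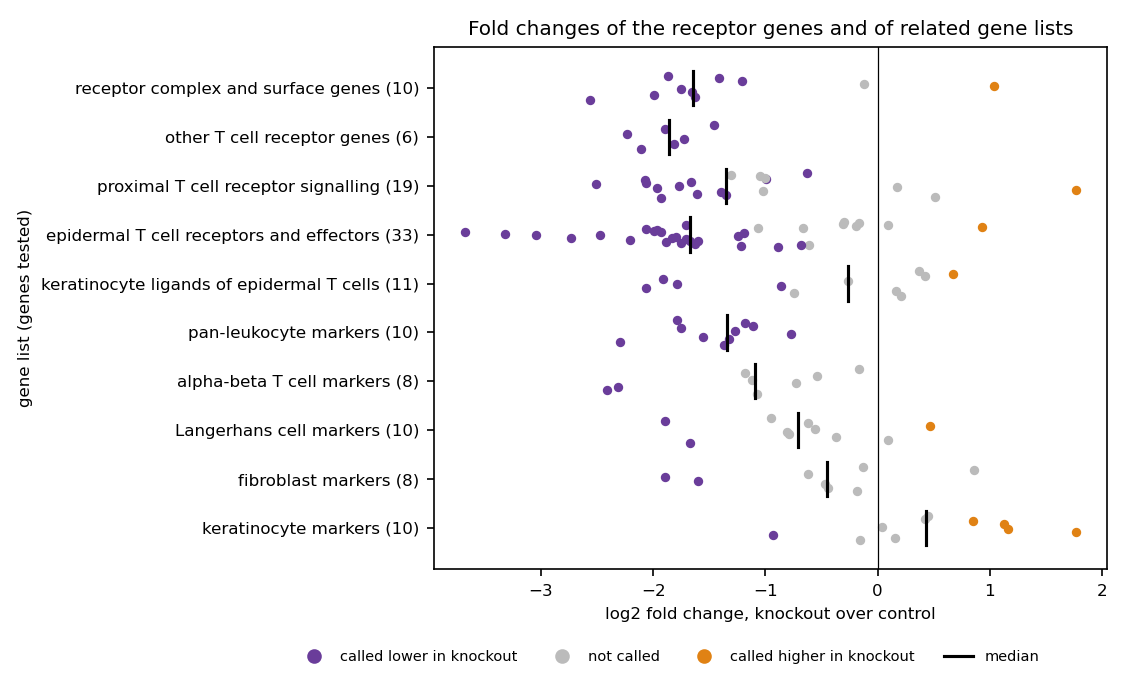
Log2 fold change of knockout over control (horizontal) of each tested gene in 10 lists (vertical), with the number tested in brackets, the call in colour and the median as a black line. The medians of the receptor, signalling, effector and leukocyte lists lie between -1.86 and -1.35, those of fibroblast and keratinocyte markers at -0.45 and 0.44. Those of alpha-beta T cell markers, Langerhans cell markers and keratinocyte ligands lie at -1.10, -0.71 and -0.26.

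Markers shared by white blood cells were lower in the knockouts, as were most of the receptor genes. All 10 pan-leukocyte markers fell (100%, beside 18.8% of all genes tested), with a median of -1.35. Their summed level was 138 to 194 CPM in the knockouts and 275 to 520 CPM in the controls. The knockouts and controls overlapped for the marker Laptm5. Ptprc, the CD45 phosphatase, fell by 1.37 (SE 0.31), a call lost with no filter, and Arhgdib, Cd52 and Rac2 by 1.27, 2.30 and 1.75. Of 10 Langerhans cell markers 2 fell and 1 rose (20% and 10%, near or below the 18.8% and 17.4% of all genes tested). Their median was -0.71, and their summed level was 968 to 1233 CPM in the knockouts and 948 to 2085 CPM in the controls. Cd207 (-1.68, SE 0.49) and Il1r2 (-1.89, SE 0.55) fell, and Mfge8 rose (0.46, SE 0.14). The groups overlapped for Cd207. The calls of Cd207, Il1r2 and Mfge8 were lost in 8, 6 and 7 of 14 alternatives. Of 11 tested macrophage and neutrophil markers 6 rose (54.5%, beside 17.4% of all genes tested) and 0 fell (beside 18.8%). S100a8 and S100a9, calprotectin genes that keratinocytes can also express, held most of the summed level in the knockouts, with 145 to 1489 CPM together in the knockouts and 7.36 to 35.4 CPM in the controls. The other 10 markers summed to 68.2 to 82.9 CPM in the knockouts and 28.6 to 63.8 CPM in the controls. The neutrophil receptor gene Cxcr2 and the complement genes C1qa, C1qb and C1qc also rose, while Cd68, Csf1r, Adgre1, Mrc1 and Lyz2 were not called and Csf3r had 0 to 1 counts per library. All 8 hair follicle markers fell (100%, beside 18.8% of all genes tested), with a median of -6.54. Of 4 tested markers of vessels, muscle and nerve 1 fell and 1 rose, too few to set beside the share of all genes. The part of these cells in the change of the receptor genes was not tested.

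The genes whose pattern over the 6 libraries lay closest to that of Cd3e were sought among 10678 other named genes with a mean of at least 5 CPM, by the mean absolute difference of their centred log2 CPM. The 6 closest were Mpc2 (0.052), a subunit of the mitochondrial pyruvate carrier, the RNA-binding protein gene Lsm3 (0.081), the centromere protein gene Itgb3bp (0.081), the cystatin gene Cst6 (0.099), the tetrahydrobiopterin enzyme gene Pts (0.11) and the replication protein gene Rpa3 (0.11). Among the receptor and surface genes Cd247 lay nearest, at 0.17, with 53 of the 10678 genes nearer still. Cd3g, Trdc and Thy1 followed at 0.21, 0.23 and 0.23, and Trbc2 and Trbc1 lay farthest, at 0.72 and 1.27.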

How the data were processed

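The authors deposited raw counts of reads, in 6 columns, for each Ensembl gene identifier. TopHat 1.3.3, featureCounts 1.4.6, Cuffdiff 1.3.0 and the mouse build GRCm38 are named, per the submitters' processing notes, with no roles or order. The annotation, the use of strand and the treatment of reads matching several genes are not given in the sources used here. Symbols came from GENCODE M21 (44585 identifiers, 98% of 45513), as did exon lengths and positions, and promoters came from RefSeq (GRCm38.p6, 5 of the 10 genes matched).

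All genes were fitted with edgeR 4.0.16 under R 4.3.3, with TMM factors, filterByExpr, robust quasi-likelihood fits and the group as the only term, so that 15513 of 25742 identifiers with any count were tested. The SE of a log2 fold change is its size divided by the root of the F statistic. The steps were tested on simulated data. Single values were compared with 2-sided exact permutation tests. Alternatives used DESeq2 1.42.0, limma-voom 3.58.1, other scaling and filters, the replicate number as a block, sex, each library left out, and Trbc1 and Trbc2 summed. The 10 genes and the 13 gene lists (166 of 169 entries found) were chosen with earlier results of these data known.

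Named were the 10 genes, from each list the 3 called genes with the smallest p (or the 1 with the smallest p), and the 6 genes nearest to Cd3e, a few of which are given only within counts or are not reported here. Every other named gene was picked with its values in view. The labels name separate mice, and no 2 libraries of a group agreed within counting error.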

Additional observations from a re-analysis of the deposited data

How the results depend on the processing

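The number of the 10 genes that fell lay between 7 and 8 in every alternative, and the number that rose was 0 with upper-quartile factors, with no filter on low counts and with Trbc1 and Trbc2 summed. Without 1 library the number that rose lay between 0 and 1. Upper-quartile factors gave 1756 higher genes over all genes tested, against 2693 with TMM. Without 1 library the genes called lower numbered 1714 to 2771 and those called higher 1586 to 2754. The signalling genes that fell numbered 7 to 15 without 1 library and those that rose 1 to 2, with 2 also with no filter and with DESeq2, where Fyn was called. The effector genes that fell numbered 12 to 26, the ligand genes that fell 2 to 4, and those that rose 1 to 2. Against the summed CD3 chains in place of Cd3e the log2 ratio differed by -0.050 for Cd3g, 1.78 for Trbc2 and 0.69 for Thy1, against -0.31, 1.52 and 0.43, since the sum itself fell more than Cd3e. Without 1 library the log2 fold change of Trbc2 lay between -0.32 and 0.029, being 0.0051 without knockout 2. The replicate numbers did not pair the libraries: deviations of same-numbered libraries from the group means correlated at -0.11, -0.098 and 0.42, and only number 3 correlated best with its own. With the replicate block 7 of the 10 genes fell and 1 rose, Cd2 losing its call (edgeR's adjusted p = 0.0849), and 2701 genes fell and 2422 rose in all. Where no other cause is named, the cause was not tested. Depth limits the joining and variable segments, which had few counts per library.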
